A study of Mus musculus with 4 samples.

Results

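The Notch pathway genes described here are 10 genes of primary (1°) mouse oligodendroglial cell (OGC) cultures: the receptors Notch1, Notch2 and Notch3, the ligands Dll1, Dll3 and Jag1, and the Hes and Hey genes Hes1, Hes5, Hes6 and Hey1. They were chosen by gene symbol for their role in the pathway, although earlier results of these data were known at the time. They are 10 of 53465 genes in the count files. RNA-Seq was performed on 1° OGCs kept in differentiation medium for 3 days (3ddiff), to compare cells with and without the zinc finger protein Zfp276. The 2 ctrl libraries came from Zfp276 flox/flox mice without Cre. The 2 Zfp276cko libraries came from mice that carried Sox10::Cre (tg) together with Zfp276 flox/flox, so that both genotypes shared the floxed allele. Each library is an independent preparation from 3 pooled mice at postnatal day 2 to 4. Forebrain cells had been grown as mixed glial culture, shaken off and depleted of microglia. A tdTomato reporter behind a floxed stop in the Rosa26 locus had been added by breeding to mice for such cultures. It served to identify newborn Zfp276cko mice. Cre, on which this reporter depends, was present in the Zfp276cko mice only, so it differed between the groups together with Zfp276. The background was a mix of C3H and C57Bl/6J. Sox10::Cre is a BAC transgene with activity in the oligodendroglial lineage beginning in OPCs. Whether it also acted in other cells of the culture was not tested.

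Notch receptors are held at the cell surface and are activated by ligands of the Delta and Jagged families on a neighbouring cell. Activation leads to cleavage of the receptor by ADAM proteases and by γ-secretase, and the released intracellular part joins the DNA-binding protein RBPJ and Mastermind proteins in the nucleus. Classical targets are Hes and Hey genes, which code for basic helix-loop-helix repressors. In the oligodendroglial lineage, Notch1 signalling through Hes5 is known to hold precursors (OPCs) back from differentiation.

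Promoter sequences from RefSeq, in the build GRCm38.p6, were found for 8 of the 10 genes. There was no entry for Hes1 and Hey1. The sequences shown are the 250 bases before the start annotated by RefSeq, 5′ to 3′ on the strand of the gene. Hes5 is given first as the direct target of the pathway, with capitals for the RBPJ motif TGTGGGAA or its reverse complement. It lies at chr4:154960673-154960922 on the plus strand and holds the motif 2 times, beginning 226 and 84 bases before the start and on opposite strands. Dll1 (chr17:15376933-15377182, minus strand), Dll3 (chr7:28301786-28302035, minus strand) and Hes6 (chr1:91414039-91414288, minus strand) follow, because they share the E-box CAGCTG, given in capitals. E-boxes are binding motifs of basic helix-loop-helix proteins. Dll1 and Hes6 have 2 starts in the table, and the one nearest to the GENCODE start was used. The annotations differ for some genes: the Dll3 stretch, and that of Notch1, lies within the longer gene span of GENCODE that is given with the values.
Hes5: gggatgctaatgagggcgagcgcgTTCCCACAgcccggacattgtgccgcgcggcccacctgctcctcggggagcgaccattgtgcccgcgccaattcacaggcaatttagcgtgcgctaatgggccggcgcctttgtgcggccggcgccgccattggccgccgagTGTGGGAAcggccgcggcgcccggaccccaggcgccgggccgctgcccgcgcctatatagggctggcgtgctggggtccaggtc
Dll1: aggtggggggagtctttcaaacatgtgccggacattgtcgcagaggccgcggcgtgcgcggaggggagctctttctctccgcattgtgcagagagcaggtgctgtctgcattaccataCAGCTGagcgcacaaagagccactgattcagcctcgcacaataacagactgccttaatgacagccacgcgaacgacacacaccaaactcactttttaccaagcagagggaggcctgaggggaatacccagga
Dll3: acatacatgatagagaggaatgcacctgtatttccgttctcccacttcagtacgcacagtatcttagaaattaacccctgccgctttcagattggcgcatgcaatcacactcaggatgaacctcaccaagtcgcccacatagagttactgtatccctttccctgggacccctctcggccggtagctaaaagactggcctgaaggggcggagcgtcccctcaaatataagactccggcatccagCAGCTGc
Hes6: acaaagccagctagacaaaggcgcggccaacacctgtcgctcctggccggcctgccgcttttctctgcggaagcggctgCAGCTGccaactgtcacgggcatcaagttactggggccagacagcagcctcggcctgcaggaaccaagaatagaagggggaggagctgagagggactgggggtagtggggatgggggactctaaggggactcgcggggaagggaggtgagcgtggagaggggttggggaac

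TGTGGGAA was present on either strand in 1.46% of 32841 mouse promoters of this length, and 2 or more matches were present in 0.0274%. Among the 8 promoters it was found in Hes5 only. The shorter core TGGGAA, which lies within the longer motif, was present in 21.6% of all promoters and again in 1 of the 8. CAGCTG was found in 4 of the 8, beginning 132 bases before the start of Dll1, 7 before that of Dll3, 171 before that of Hes6 and 82 before that of Jag1, and was present in 13.0% of all promoters. The motifs were chosen with earlier results or the promoter sequences known, so the shares among the 8 are not a test. These matches are a description of the letters, and binding was not measured. GC content was 71.6% in the Hes5 promoter, 63.6% in that of Hes6, 56.0% in that of Dll1 and 52.0% in that of Dll3.

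Counted reads were 21311469 for ctrl replicate 1, 21068322 for ctrl replicate 2, 25265366 for Zfp276cko replicate 1 and 26599809 for Zfp276cko replicate 2. Values per library are given as normalized counts, which are counts scaled to the mean effective library size. Zfp276 had normalized counts of 1648 and 2230 in ctrl and 490 and 503 in Zfp276cko OGCs, or 25.6% of ctrl (log2 fold change −1.97, SE 0.18). Its exons overlap over 920 nt with Fanca on the opposite strand, whose reads cannot be told apart without the strand setting of the counting. The ctrl replicates differed from each other far more than the Zfp276cko replicates. A difference of 2-fold or more was found for 12.4% of 14324 well-counted genes (mean of at least 20) when ctrl replicates were compared, and for 0.272% when Zfp276cko replicates were. The quasi-likelihood test of edgeR, adjusted after Benjamini-Hochberg, called none of 15766 tested genes (0%), and the lowest adjusted p was 0.0725. Zfp276 itself did not pass, at an adjusted p of 0.0962, although it did with DESeq2 (adjusted p = 1.25e-14). Summed normalized counts of 10 oligodendrocyte markers, led by Mbp, were 287769 and 393344 in ctrl as compared to 197102 and 201514 in Zfp276cko OGCs. Those of 10 OPC markers, led by Gpr17, were 235471 and 163759 in ctrl as compared to 128578 and 126337 in Zfp276cko OGCs, so that the labelled cell type was present in each library. Much of this sum was Gpr17 alone, with 113405 and 69766 in ctrl and 43296 and 41092 in Zfp276cko OGCs. Of the 10 OPC markers, 8 had negative and 2 had positive log2 fold changes. For 6 both Zfp276cko libraries were below ctrl, and 4 overlapped, among them Pdgfra with 10049 and 15501 in ctrl and 11842 and 11561 in Zfp276cko OGCs. In bulk RNA, fewer cells of a type and less RNA per cell cannot be told apart.

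All 10 Notch pathway genes passed the filter on low counts. None was called by the quasi-likelihood test (0 of 10, against 0% of all tested genes), and DESeq2 and limma voom also called none. At an unadjusted p of at most 0.05, no gene of the 10 was lower and none was higher in Zfp276cko OGCs, against 7.3% and 8.33% of all tested genes. DESeq2 called 2.11% of 15896 genes lower and 2.8% higher, and its smallest adjusted p among the 10 was 0.406, for Dll1. For 2 genes, Dll1 and Hes6, both Zfp276cko values were below both ctrl values, against 23.7% of all tested genes. Both lay above for Notch2 and Jag1, against 26.8%. The groups overlapped for the other 6. The median log2 fold change was −0.21 over the 10 genes and −0.0013 over all tested genes. By role, the 3 receptors had positive values between 0.07 and 0.21, and the 4 Hes and Hey genes had negative values between −0.55 and −0.21. No value in either group passed the test.

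**Figure D1:**
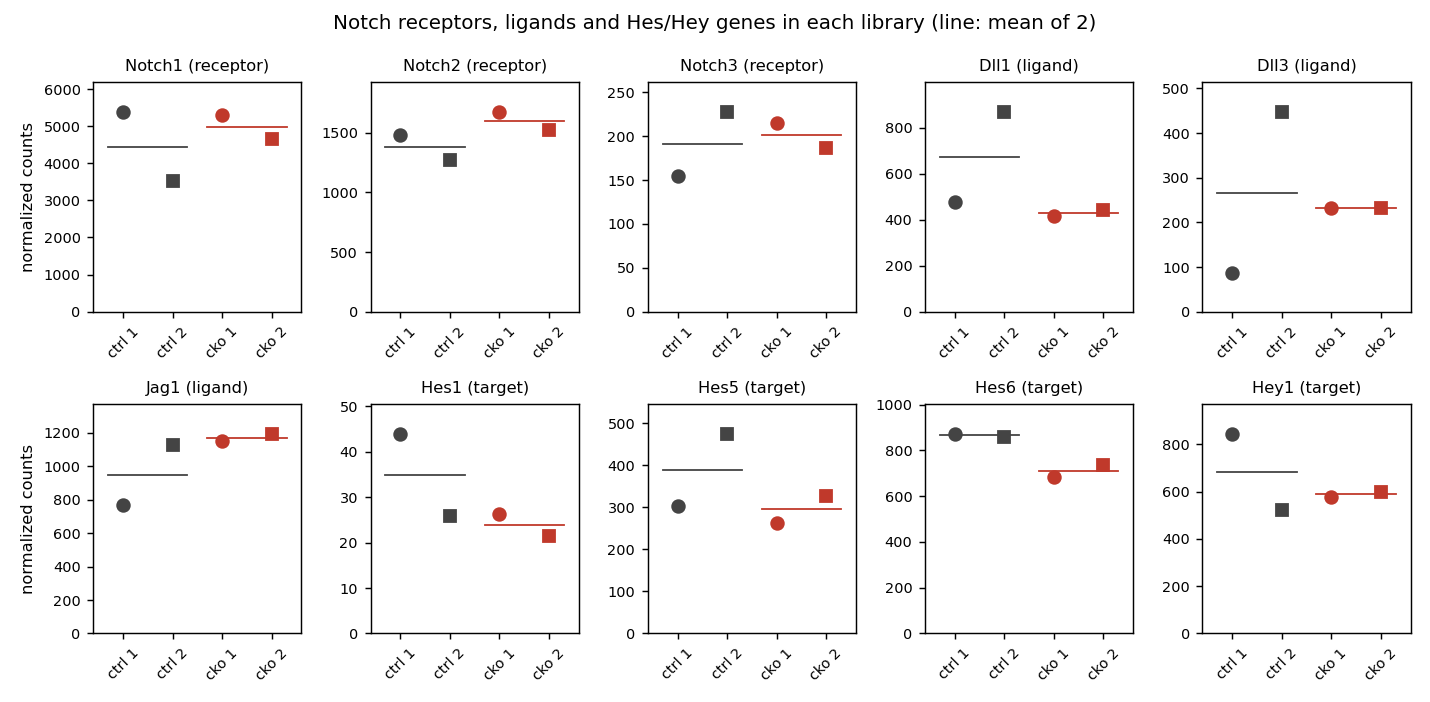
Normalized counts (linear axis from 0) of the 10 Notch pathway genes in the 2 ctrl libraries (grey) and the 2 Zfp276cko libraries (red), with circles for replicate 1, squares for replicate 2 and a line at the mean of each genotype. The Zfp276cko replicates lie close together, whereas the ctrl replicates of Dll3 are 5.15-fold apart, and the red points lie below both grey points for Dll1 and Hes6 only.

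Levels were compared between genes as RPKM (reads per kilobase of exon, scaled to the library size), averaged over the 4 libraries. Length was that of all annotated exons of a gene, merged, with 14232 nt for Notch1 and 1808 nt for Hes6. The order of the genes can depend on this definition, and other lengths were not tried. Hes6 had the highest mean, 18.5 RPKM, followed by Notch1 with 14.0, Hes5 with 10.6, Hey1 with 8.24 and Jag1 with 7.70. Notch2 had 5.84, Dll1 5.53, Dll3 3.70, Notch3 1.02 and Hes1 0.610 RPKM. The range over the libraries overlapped with that of the next gene in this order at all but 2 steps. These were the step from Hes6, whose lowest library had 16.03, to Notch1, whose highest had 15.98 RPKM, and the step from Dll3 to Notch3. By the mean per length, Hes6 was thus the most and Hes1 the least abundant of the 10 genes. Hes1 was not last in each library, as it had 0.912 and Notch3 0.807 RPKM in ctrl replicate 1.

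**Figure D2:**
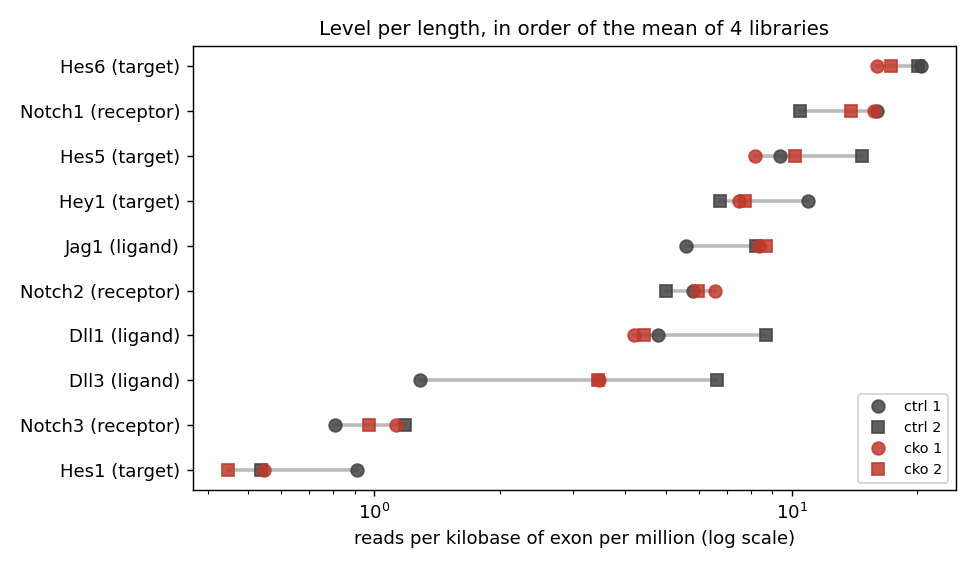
RPKM (log axis) of the 10 genes in each library, in the order of the mean over the 4 libraries. Grey bars span the lowest to the highest library, and neighbouring bars overlap except between Hes6 and Notch1, where the gap is from 15.98 to 16.03 RPKM, and between Dll3 and Notch3.

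Among the receptors, Notch1 (chromosome 2 of mm10, 26457903 to 26516663, minus strand) is the one best known from OPCs. Its normalized counts were 5375 and 3522 in ctrl as compared to 5290 and 4663 in Zfp276cko OGCs. The groups overlapped, with both Zfp276cko libraries between the ctrl libraries. The log2 fold change of Zfp276cko over ctrl was 0.16 (SE 0.24, 95% interval −0.48 to 0.80, adjusted p = 0.785 in edgeR's quasi-likelihood test). It turned to −0.12 without ctrl replicate 2. Notch2 (chromosome 3, 98013527 to 98150361, plus strand), a receptor of the same family, had 1483 and 1275 in ctrl and 1673 and 1522 in Zfp276cko OGCs. Its Zfp276cko libraries lay above both ctrl libraries, but by little, with a log2 fold change of 0.21 (SE 0.12, 95% interval −0.11 to 0.54, adjusted p = 0.472). Notch3 (chromosome 17, 32120820 to 32166852, minus strand), which is best known from mural cells of vessels, had 154 and 227 in ctrl and 215 and 186 in Zfp276cko OGCs. Here too both Zfp276cko libraries lay between the ctrl libraries, and the log2 fold change was 0.07 (SE 0.27, 95% interval −0.65 to 0.80, adjusted p = 0.923). It turned to −0.18 without ctrl replicate 1 and to −0.029 without Zfp276cko replicate 1. The summed normalized counts of 10 mural cell and fibroblast markers were 7494 and 4518 in ctrl as compared to 2623 and 2431 in Zfp276cko OGCs. The largest of these, Cspg4, is an OPC marker as well. All 8 markers of the list that were tested had negative log2 fold changes, with both Zfp276cko libraries below both ctrl libraries for 3 of them. The smooth muscle gene Acta2 had 914 and 284 in ctrl and 88.7 and 78.2 in Zfp276cko OGCs, and Pdgfrb, the receptor of pericytes, had 127 and 18.0 in ctrl and 35.3 and 22.3 in Zfp276cko OGCs. The pericyte marker Abcc9 was the single one with at most 3 counts in each library. Their part in the Notch3 values was not tested.

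Dll1 (chromosome 17, 15367354 to 15376872, minus strand) is a Delta-like ligand that activates receptors on neighbouring cells. It had normalized counts of 477 and 868 in ctrl and 418 and 442 in Zfp276cko OGCs, with means of 672 ± 276 and 430 ± 17.3 (SD, n = 2 each). Both Zfp276cko libraries were below both ctrl libraries, but close to ctrl replicate 1 and far from ctrl replicate 2. Its log2 fold change of −0.64 (SE 0.32, 95% interval −1.51 to 0.22) was the largest in size among the 10 genes in the fit to all libraries, and the adjusted p was 0.424. Without ctrl replicate 1 it was −1.01 and was called (adjusted p = 1.07e-07). Without ctrl replicate 2 it was −0.16 (adjusted p = 0.258). In such fits the remaining ctrl library is assumed to vary like the Zfp276cko libraries, which were much closer to each other than the ctrl libraries were.

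Dll3 (chromosome 7, 28293553 to 28302238, minus strand) is a divergent Delta-like protein that does not activate receptors on neighbouring cells and acts within the cell that makes it. Its normalized counts were 86.7 and 447 in ctrl as compared to 233 and 232 in Zfp276cko OGCs. The ctrl replicates were thus 5.15-fold apart and enclosed both Zfp276cko libraries, which were 1.00-fold apart. The log2 fold change of −0.20 had a SE of 0.78 and a 95% interval from −2.32 to 1.92 (adjusted p = 0.928). Leaving out either ctrl library gave calls in opposite directions: Dll3 was lower by −0.94 without ctrl replicate 1 (adjusted p = 2.08e-06) and higher by 1.41 without ctrl replicate 2 (adjusted p = 6.2e-07). The direction between the genotypes was therefore not determined by these libraries.

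Several genes of neuronal precursors and neurons were, like Dll3, lowest in ctrl replicate 1 and highest in ctrl replicate 2. They were singled out from the marker lists after their values were seen. Dlx1, a transcription factor of interneuron precursors, had normalized counts of 10.7 and 1191 in ctrl and 719 and 791 in Zfp276cko OGCs. Gad1, which makes the transmitter GABA, had 78.4 and 2002 in ctrl and 920 and 1003 in Zfp276cko OGCs. Rbfox3, a marker of mature neurons, had 14.2 and 197 in ctrl and 106 and 110 in Zfp276cko OGCs. In all 3 the Zfp276cko libraries lay between the ctrl libraries. The summed normalized counts of 10 neuronal markers, led by Map2, were 18003 and 31349 in ctrl as compared to 22378 and 24545 in Zfp276cko OGCs. Those of 10 neural precursor markers, led by Fabp7, were 22085 and 36643 in ctrl as compared to 26264 and 27578 in Zfp276cko OGCs. The part of such cells in the values of Dll1, Dll3 and Hes5 was not tested.

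Jag1 (chromosome 2, 137081456 to 137116644, minus strand), a Jagged ligand that is also found on axons and astrocytes, had 771 and 1130 in ctrl and 1150 and 1193 in Zfp276cko OGCs. Both Zfp276cko libraries were above both ctrl libraries, with means of 950 ± 254 and 1172 ± 30.6 (SD, n = 2 each). The smallest gap was that between ctrl replicate 2 and Zfp276cko replicate 1. Jag1 had a log2 fold change of 0.30 (SE 0.21, 95% interval −0.27 to 0.87, adjusted p = 0.548), which ranged from 0.054 without ctrl replicate 1 to 0.59 without ctrl replicate 2. The summed normalized counts of 10 astrocyte markers, led by Gfap, were 48936 and 46032 in ctrl as compared to 45205 and 42885 in Zfp276cko OGCs. The single markers did not share this order. Slc1a3, a glutamate transporter gene, had 2674 and 6747 in ctrl and 5259 and 5284 in Zfp276cko OGCs, whereas Gfap had 17641 and 8463 in ctrl and 12993 and 12248 in Zfp276cko OGCs. Both Zfp276cko libraries were above both ctrl libraries for 2 of the 10, Aldh1l1 and Fgfr3, below for 2 and overlapped with ctrl for 6. Their part in the Jag1 values was not tested.

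Among the Hes and Hey genes, Hes5, the direct Notch target with the 2 separate RBPJ motifs shown above, lies on chromosome 4 from 154960923 to 154962371 on the plus strand. Its normalized counts were 303 and 475 in ctrl as compared to 263 and 328 in Zfp276cko OGCs. The groups overlapped, because Zfp276cko replicate 2 exceeded ctrl replicate 1, and the log2 fold change was −0.39 (SE 0.29, 95% interval −1.17 to 0.38, adjusted p = 0.565). It was called without ctrl replicate 1 (−0.68, adjusted p = 0.000278) but was −0.045 without ctrl replicate 2 (adjusted p = 0.821). Hes1 (chromosome 16, 30064384 to 30067796, plus strand), a repressor that maintains neural progenitors, had the lowest mean RPKM of the 10 genes. Its counts before normalization were 37 and 23 in ctrl as compared to 29 and 25 in Zfp276cko OGCs, and its normalized counts were 43.9, 25.9, 26.2 and 21.5 in the same order. The groups overlapped, and the log2 fold change was −0.55 (SE 0.40, 95% interval −1.63 to 0.54, adjusted p = 0.570). Hes1 was called lower without ctrl replicate 2 (−0.89, adjusted p = 0.0418), and its value without ctrl replicate 1 was −0.12 (adjusted p = 0.841).

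Hes6 (chromosome 1, 91411483 to 91414038, minus strand) differs from its relatives in that it counteracts Hes1 and favours differentiation. It had normalized counts of 871 and 860 in ctrl and 685 and 738 in Zfp276cko OGCs. This was the only gene of the 10 whose ctrl replicates were closer to each other than its Zfp276cko replicates, with means of 866 ± 8.30 and 711 ± 37.5 (SD, n = 2 each). Both Zfp276cko libraries were below both ctrl libraries, at 82.2% of the ctrl mean, which is a log2 fold change of −0.28 (SE 0.11, 95% interval −0.58 to 0.01). The unadjusted p of 0.0566 and the adjusted p of 0.336 were the smallest among the 10 genes. Leaving out ctrl replicate 1 or 2 gave −0.27 (adjusted p = 0.0347) and −0.31 (adjusted p = 0.0159), below the size of 0.6 that a call needed. Hey1 (chromosome 3, 8663359 to 8667256, minus strand), a repressor of the related Hey family, had 844 and 521 in ctrl and 579 and 598 in Zfp276cko OGCs. Its Zfp276cko libraries lay between the ctrl libraries, and the log2 fold change was −0.21 (SE 0.26, 95% interval −0.93 to 0.50, adjusted p = 0.746), turning to 0.18 without ctrl replicate 1.

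**Figure D3:**
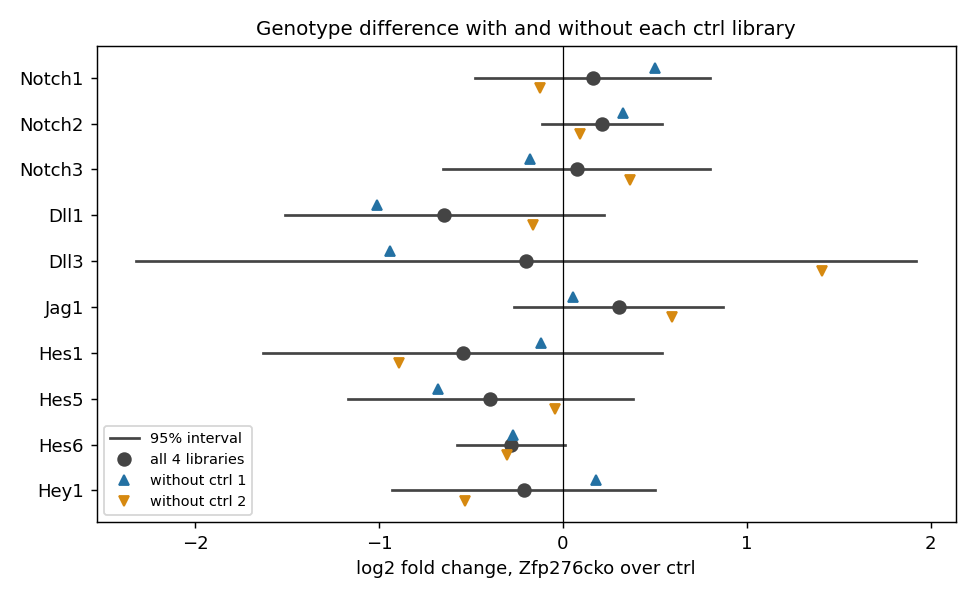
Log2 fold change of Zfp276cko over ctrl for the 10 genes from all 4 libraries (grey points with 95% intervals) and without ctrl replicate 1 or 2 (triangles, drawn without intervals). Every interval includes 0, and the triangles of Dll3 lie at −0.94 and 1.41, on opposite sides of 0.

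The ctrl replicates of the 10 genes were a median of 0.63 apart on the log2 scale, against 0.29 for the 14324 genes with a mean of at least 20. Hes6 (0.020) and Notch2 (0.22) were closer than this, and 1 of the 10 genes, Dll3, was at least 2-fold apart, as were 1833 of the 14324. The corresponding values for the Zfp276cko replicates were 0.12 and 0.087. The ctrl replicates were not shifted in 1 direction. Notch1, Notch2, Hes1, Hes6 and Hey1 were higher in ctrl replicate 1, and Notch3, Dll1, Dll3, Jag1 and Hes5 in ctrl replicate 2. Both Zfp276cko libraries lay between the ctrl libraries for 4 genes, Notch1, Notch3, Dll3 and Hey1. An exact permutation test of 2 against 2 libraries cannot give a p below 0.333. Exons of Notch2 overlap over 541 nt with Gm42820 on the same strand. For 4 of the genes the largest overlap is with a gene on the opposite strand, over 1068 nt for Notch1, 488 nt for Notch3, 867 nt for Dll1 and 433 nt for Hes5. Because the strand setting of the counting was not given in the sources used here, reads of the opposite-strand partners cannot be told apart in these values. Reads of Gm42820, on the same strand as Notch2, could not be told apart by strand in any case.

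Of 65 other symbols of the Notch pathway that were listed by role, 64 were in the count files (Tle5 is listed there under its older symbol Aes) and 60 were tested. The filter removed Mfap5, Hes2, Hes7 and Heyl. The quasi-likelihood test called 0 of the 60. At an unadjusted p of at most 0.05, 8 were lower and 4 were higher in Zfp276cko OGCs, against 7.3% and 8.33% of all tested genes. Their median log2 fold change was −0.015. Both Zfp276cko libraries were below both ctrl libraries for 20 (against 23.7% of all tested genes), above for 15 (against 26.8%), and overlapped with ctrl for 25. DESeq2 called 6 of them, Tle2, Dner, Cntn1 and Ccnd1 lower and Myc and Dtx2 higher, against 2.11% lower and 2.8% higher among all its genes, and limma voom called Tle2 and Myc.

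Of the 6 other ligands tested, 2 passed 0.05 before adjustment. Contactin 1 (Cntn1) is a membrane-anchored adhesion protein and a non-classical ligand of Notch1. It had normalized counts of 11821 and 10924 in ctrl and 7177 and 7097 in Zfp276cko OGCs. Dner, another non-classical ligand, had 3391 and 2850 in ctrl and 1883 and 1809 in Zfp276cko OGCs. The groups were well apart in both. Log2 fold changes were −0.67 for Cntn1 (SE 0.11, adjusted p = 0.134) and −0.76 for Dner (SE 0.12, adjusted p = 0.136), and DESeq2 gave adjusted p values of 0.00014 and 0.00121. Dlk1, a Delta-like protein without the receptor-activating domain, had 199 and 23.6 in ctrl and 32.6 and 29.2 in Zfp276cko OGCs. It was high in ctrl replicate 1 only, and its log2 fold change of −1.85 (SE 1.04, adjusted p = 0.469) turned to 0.38 without this library. The fibroblast collagen gene Col1a1 was likewise high in that library, with 2522 normalized counts against 63.0 in ctrl replicate 2 and 74.2 and 49.0 in Zfp276cko OGCs. Its part in the Dlk1 values was not tested. The remaining receptor, Notch4, had 15.4 and 28.1 in ctrl and 20.8 and 18.9 in Zfp276cko OGCs (log2 fold change −0.14, adjusted p = 0.910, and 0.35 without ctrl replicate 2).

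Next came genes that act on ligands and receptors. Of 4 genes for ligand endocytosis, the ubiquitin ligase genes Neurl1b (log2 fold change −0.62, adjusted p = 0.274) and Mib1 (−0.37, adjusted p = 0.316) passed 0.05 before adjustment. Of 5 genes for receptor glycosylation, this held for the Fringe gene Rfng (−0.34, adjusted p = 0.286), whereas its relative Mfng had 0.67 (adjusted p = 0.330) and the glucosyltransferase gene Poglut1 0.07 (adjusted p = 0.800). Among 10 protease genes it held only for Psen2, which codes for a catalytic subunit of γ-secretase. Psen2 had 849 and 600 normalized counts in ctrl and 1279 and 1198 in Zfp276cko OGCs, a log2 fold change of 0.77 (SE 0.20, adjusted p = 0.214). The γ-secretase subunit gene Aph1c had 147 and 66.4 in ctrl and 217 and 238 in Zfp276cko OGCs, with a log2 fold change of 1.09 (SE 0.43, adjusted p = 0.345). Adam17, the most counted protease gene, had a log2 fold change of 0.08 (adjusted p = 0.874).

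None of the 7 genes of the nuclear complex passed 0.05 even before adjustment. The acetyltransferase gene Kat2b had a log2 fold change of −0.32, the Mastermind gene Maml2 one of −0.20 and the coactivator gene Ep300 one of 0.0020. In contrast, the groups were far apart for Tle2, which codes for a Groucho-type corepressor that Hes proteins recruit. Tle2 had normalized counts of 970 and 1261 in ctrl and 275 and 240 in Zfp276cko OGCs. This was a log2 fold change of −2.12 (SE 0.19, 95% interval −2.63 to −1.60), with an adjusted p of 0.0962 in edgeR's quasi-likelihood test and 4.26e-15 in DESeq2. Without ctrl replicate 1 or 2 it was −2.29 and −1.93. Of the 12 corepressor genes, Ctbp1 (−0.30, adjusted p = 0.291) was the other one that passed 0.05 without adjustment, while Aes had −0.16 (adjusted p = 0.700).

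Among 11 negative regulators, the Deltex gene Dtx2 had 468 and 547 normalized counts in ctrl and 811 and 807 in Zfp276cko OGCs (log2 fold change 0.67, SE 0.13, adjusted p = 0.172, and 0.0255 in DESeq2). The repressor gene Bcl6 had a log2 fold change of 0.38 (adjusted p = 0.242). Nrarp, a feedback inhibitor that is itself induced by Notch, had −0.49 (adjusted p = 0.469), and the kinase gene Aak1 −0.01 (adjusted p = 0.962). Of the 4 other targets tested, the cyclin gene Ccnd1 and the growth regulator gene Myc differed in opposite directions. Ccnd1 had 5447 and 4291 in ctrl and 2699 and 2800 in Zfp276cko OGCs, a log2 fold change of −0.82 (SE 0.15, adjusted p = 0.158). Myc had 2661 and 2799 in ctrl and 4760 and 4949 in Zfp276cko OGCs, a log2 fold change of 0.83 (SE 0.09, adjusted p = 0.110). DESeq2 gave adjusted p values of 0.00138 for Ccnd1 and 1.8e-06 for Myc. Both are also targets of several other pathways.

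**Figure D4:**
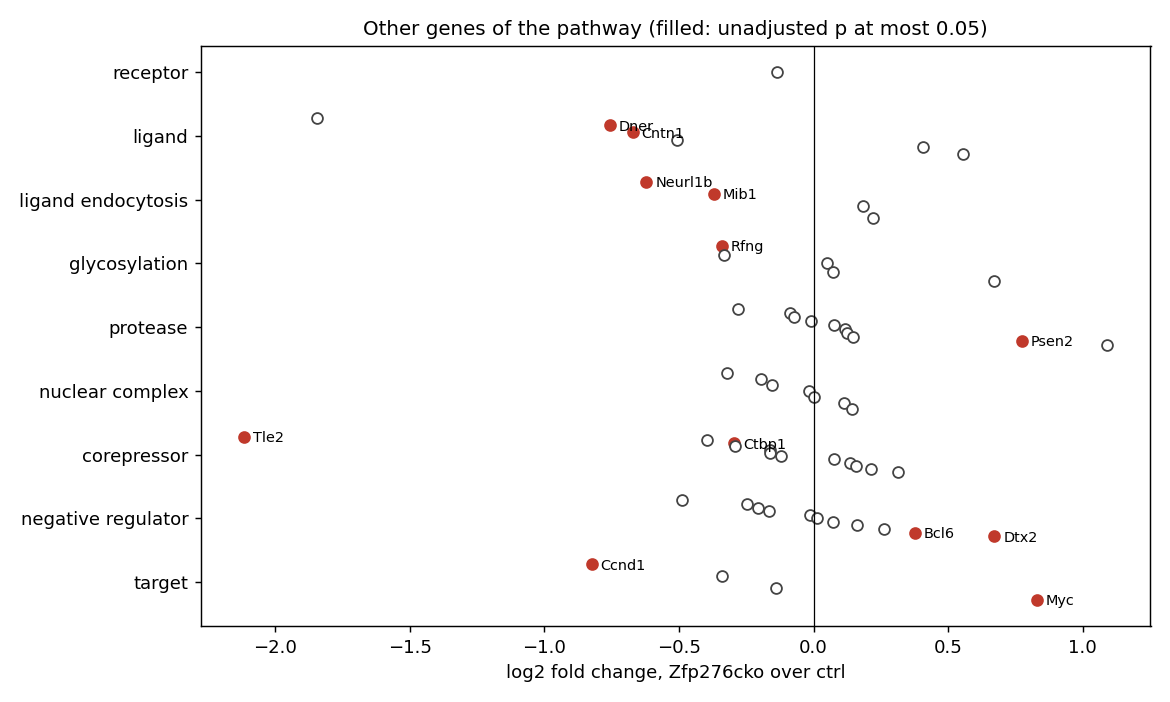
Log2 fold change of Zfp276cko over ctrl for the 60 other tested Notch pathway genes, grouped by role, with filled points for the 12 genes with an unadjusted p of at most 0.05. Tle2 stands apart at −2.12, whereas the open point at −1.85 is Dlk1, whose ctrl libraries differed 8.44-fold.

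Likeness of profile was measured over the 4 libraries as the Euclidean distance of log2 values centred on their mean, among 69 other Notch pathway genes. The nearest profile to Hes6 was that of Maml2 (distance 0.108), followed by Numb (0.137). Nrarp was nearest to Hes5 (0.224), Aes to Hey1 (0.20) and Neurl1b to Hes1 (0.355). With 4 libraries these distances are a description only.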

How the data were processed

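RNA-Seq was analysed for 2 ctrl and 2 Zfp276cko preparations of 1° mouse OGCs at 3ddiff. Strand-specific mRNA libraries were sequenced, and the authors aligned the reads to mm10 by STAR (2.5.4a per the submitters' processing notes) and deposited whole-number counts per gene without normalization. The study's methods name HTSeq for counting, the processing notes list featureCounts 1.5.1, and the strand setting is not given in the sources used here. The 220 entries that share a symbol were kept apart, and none is one of the 10 Notch pathway genes.

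Genes were kept by filterByExpr (15766 genes, 99.9% of counts), normalized by TMM (factors 0.935 to 1.04) and compared with edgeR's quasi-likelihood test (R 4.3.3, edgeR 4.0.16) with Benjamini-Hochberg adjustment over all tested genes. Genes were called at a mean normalized count of 20 or more, a log2 fold change of 0.6 or more in either direction and an adjusted p up to 0.05, after the study's thresholds. Alternatives were DESeq2 1.42.0, limma voom 3.58.1 with quality weights per genotype, DESeq2 size factors, no filter, a replicate block and leaving out each library. The script was tested on simulated counts. Recovery of the changed genes was required only at a spread smaller than that between the ctrl replicates. This check therefore does not show how many true changes the test can find in these data. P-values set the genotype difference against the spread between these preparations. In the quasi-likelihood test this spread was pooled over both genotypes and moderated across genes, although ctrl replicates differed far more than Zfp276cko replicates. Positions and exon lengths came from the GENCODE annotation of mm10. Percentages 2-fold apart used log2 CPM with a prior count of 2.

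Named genes were the 10 Notch pathway genes, Zfp276, in each role of the pathway list the 2 genes with the largest fold change and the most counted one, the nearest profiles and the leading gene of each marker list. Not every gene named by this rule is reported here. Further genes were named after their values were seen (Col1a1, Abcc9, Acta2, Pdgfrb, Pdgfra, Slc1a3, Aldh1l1, Fgfr3, Dlx1, Gad1, Rbfox3, Numb, Ctbp1, Bcl6). The 10 genes, the lists and the promoter motifs were chosen with earlier results of these data or the promoter sequences known. Of 8 marker lists, that of microglia, led by C1qb, summed to 43752 and 22371 normalized counts in ctrl and 30138 and 31524 in Zfp276cko OGCs, and that of endothelial cells, led by Pecam1, to 303 and 189, and 280 and 285, with Cldn5 at 0 in each library.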

Additional observations from a re-analysis of the deposited data

How the results depend on the processing

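The number of calls depended on the ctrl libraries. Over all tested genes it was 0 with the quasi-likelihood test, 8 without a filter on low counts, 780 with DESeq2, 205 with limma voom, and 0 to 3078 when 1 library was left out, with 2641 without ctrl replicate 1, 3078 without ctrl replicate 2 and 0 without either Zfp276cko library. For the 10 Notch pathway genes it was 0 in each setting with all libraries, and 0 to 3 when 1 library was left out (Dll1, Dll3 and Hes5 without ctrl replicate 1, Hes1 and Dll3 without ctrl replicate 2). For the other pathway genes it was 6 with DESeq2, 2 with limma voom and 0 to 12 when 1 library was left out (11 without ctrl replicate 1 and 12 without ctrl replicate 2). Without a ctrl library the remaining one is assumed to vary like the Zfp276cko libraries, so these counts rest on the smaller spread. With DESeq2 size factors, 1 of the 10 genes, Hes6, passed 0.05 before adjustment.

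The labels do not say whether the replicate numbers pair the libraries. Deviations of same-numbered libraries had a correlation of 0.00636 across genes. This cannot decide on pairing, because each genotype gives a single difference and the Zfp276cko replicates differed little. With the number as a replicate block, 0 genes, 0 of the 10 Notch pathway genes and 0 of the other pathway genes were called. The log2 fold change of Dll3 turned to 0.21 with the block and also to 0.21 with limma voom. The cause was not tested.

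Of 90 values of the 10 genes under the alternatives, 79 kept their direction and side of the threshold, 4 were newly called in the same direction and 7 changed sign, of which 1, Dll3 without ctrl replicate 2, was also called. When 1 library was left out, values that changed sign ranged from −0.12 to 0.50 for Notch1, −0.18 to 0.36 for Notch3, −0.94 to 1.41 for Dll3, −0.53 to 0.18 for Hey1, −0.50 to 0.35 for Notch4, −2.70 to 0.38 for Dlk1, −0.041 to 0.18 for Poglut1, −0.15 to 0.32 for Adam17, −0.067 to 0.062 for Ep300, −0.37 to 0.061 for Aes and −0.055 to 0.016 for Aak1. The negative value of Notch1 and the positive one of Dll3 came without ctrl replicate 2, the negative values of Notch3 without ctrl replicate 1 (−0.18) and Zfp276cko replicate 1 (−0.029), and the positive value of Hey1 without ctrl replicate 1. Ep300 was also −0.031 without Zfp276cko replicate 2, −0.012 with DESeq2 size factors and −0.014 with DESeq2, and Aak1 was 0.010 without a filter.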
